A study of Homo sapiens with 12 samples.

Results

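The histone genes on this array were 72 genes, of 18404 genes that a probe set names alone. A gene was taken as a member when a probe set carried a single symbol beginning with H1-, H2A, H2B, H3C, H3-, H4C or H4- (or the older HIST). Each member had 1 probe set. Of the 72, 57 were classed as replication-dependent genes (cluster genes below), 12 as single variant genes, 2 as pseudogenes (H1-9P and H2BC19P) and 1, H1-10-AS1, as an antisense RNA that the letters of the rule caught. Of the 57 cluster genes, 49 lay on chromosome 6, 7 on chromosome 1 and 1 on chromosome 12 in the RefSeq table (GRCh38.p14), whereas the single variant genes were spread over 7 chromosomes. H3-3A had no probe set of its own here and was not analysed as a member.

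The cells were HepG2C3A, a human line that grows from a liver tumour and keeps many hepatocyte functions. All were cultured for 96 h. They formed 4 groups of 3 arrays: acetaminophen for 72 h in a microsystem, untreated controls in the same microsystem, acetaminophen for 72 h in Petri dishes, and untreated Petri controls. The labels used here give no dose of acetaminophen, a pain reliever that liver enzymes convert in part to a reactive product, and they do not say whether replicates were separate cultures, so p-values here speak of the spread among the arrays alone. The label of Petri treated 3 carries an asterisk that is not explained.

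Histones are the proteins around which DNA is wound. The core histones H2A, H2B, H3 and H4 form the nucleosome, and the linker histone H1 binds the DNA between nucleosomes. Replication-dependent histone genes lie in clusters, have no introns, are transcribed mainly in S phase and give mRNAs that usually end in a stem-loop rather than a poly(A) tail, although several of them also make polyadenylated transcripts in cells that have stopped dividing. Variant genes such as H2AZ1, H2AX and H3-3B stand alone in the genome and give polyadenylated mRNA, most of them throughout the cell cycle. Cluster genes of one family code for nearly the same protein and share much of their sequence, so signal on one probe set can include RNA of a close copy.

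The promoters below are of the H2B genes on which the results turn, with H3C2, an H3 gene whose probe set passed the test in none of the comparisons, for comparison. Each is the stretch of 150 bases just before the transcript start, written 5′ to 3′ on the strand of the gene, from RefSeq (GRCh38.p14). Capitals mark 3 motifs that were searched on both strands: the octamer ATTTGCAT, which binds OCT1 in H2B promoters, the CCAAT box, and TATAAA.
H2BC12 (chr6:27146859-27147008, minus strand): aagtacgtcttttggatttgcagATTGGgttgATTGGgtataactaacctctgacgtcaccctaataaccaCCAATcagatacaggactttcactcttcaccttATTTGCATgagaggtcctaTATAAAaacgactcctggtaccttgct
H2BC21 (chr1:149886683-149886832, minus strand): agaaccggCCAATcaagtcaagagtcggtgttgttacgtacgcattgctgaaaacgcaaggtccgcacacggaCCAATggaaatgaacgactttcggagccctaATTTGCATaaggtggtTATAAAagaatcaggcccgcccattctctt
H2BC8 (chr6:26216689-26216838, minus strand): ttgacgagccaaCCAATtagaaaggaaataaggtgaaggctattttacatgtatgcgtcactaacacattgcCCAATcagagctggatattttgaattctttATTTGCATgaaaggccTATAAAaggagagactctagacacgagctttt
H2BC14 (chr6:27814872-27815021, plus strand): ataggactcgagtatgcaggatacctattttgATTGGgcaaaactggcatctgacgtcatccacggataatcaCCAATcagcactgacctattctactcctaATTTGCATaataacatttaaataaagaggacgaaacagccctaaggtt
H2BC3 (chr6:26043714-26043863, minus strand): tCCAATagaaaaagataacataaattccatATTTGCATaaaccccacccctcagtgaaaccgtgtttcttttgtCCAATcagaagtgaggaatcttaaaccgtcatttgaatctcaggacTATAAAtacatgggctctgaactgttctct
H3C2 (chr6:26032100-26032249, minus strand): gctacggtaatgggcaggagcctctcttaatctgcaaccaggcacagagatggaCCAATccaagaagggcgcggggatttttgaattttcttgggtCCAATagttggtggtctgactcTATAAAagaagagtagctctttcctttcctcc

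All 5 H2B promoters shown held the octamer and a CCAAT box, and of these 5 only H2BC14 had no TATAAA in this window. The H3C2 promoter had CCAAT and TATAAA and no octamer. Of the 72 members, 63 matched an entry in the promoter table. Within 250 bases upstream, the octamer was in 81.2% of 16 cluster H2B promoters and 76.9% of 13 cluster H2A promoters, in none of the 6 H1, 7 H3 and 10 H4 cluster promoters, and in 1.63% of all 35116 promoters in the table. CCAAT was in 86.5% of the 52 cluster promoters with an entry and 32% of all promoters, and TATAAA was in 67.3% and 10.7%. These matches describe letters and not bound sites.

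The deposited values were log2 intensities on the RMA scale, on which a difference of 1 is a 2-fold change. Array medians lay between 5.56 and 5.63. A gene was tested when its value was above the 40th percentile of the array on at least 3 of the 12 arrays. Of the 72 histone genes, 53 met this, 40 of them cluster genes and 10 variant genes. The 19 that did not were H1-1, H2AC1, H2AC13, H2AC14, H2AC16, H2AC25, H2AP, H2BC1, H2BC6, H2BC10, H2BC26, H2BW1, H3C1, H3C8, H3C11, H3C12, H4C6, H4C7 and H4C13, whose group means stayed between 2.28 and 4.78. Differences were tested with limma over all 13199 genes that passed, and "rose" and "fell" below mean an adjusted p under 0.05 (Benjamini-Hochberg). Of the 8 hepatocyte markers, FGB lay at percentiles of 57.3 to 72.5 and the other 7 at 97 to 99.9; 2 of the 8 were called higher and 2 lower in microsystem against Petri controls. None of 5 endothelial markers passed the filter, and 4 of 6 fibroblast markers did, at percentiles of 41.8 to 60.8, with none called in any comparison. Of 4 leukocyte markers measured, PTPRC stayed at percentiles of 7.61 to 11.8, while LYZ and CD68 passed. Both microsystem arrays numbered 3 stood apart from the other 4 microsystem arrays on the third principal component, which held 6.77% of the variance.

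The comparison of culture vessels asked how cells in the microsystem differed from cells in Petri dishes. In untreated cells most of the cluster genes were higher in the microsystem, and 3 H2B genes were among the 4 with the largest rise. H2BC12, H2BC21 and H2BC8, all coding for the core histone H2B, rose by 2.26, 2.02 and 1.66 on the log2 scale. Brighter probe sets that H2BC12 and H2BC21 share with close copies rose by less, 0.593 and 0.455. The size of the change of these 2 genes therefore depends on the probe set. Of the 53 histone genes tested, 33 rose and 1 fell. Over all genes tested, 26.5% rose and 18.3% fell, 44.9% in all. Of the 40 cluster genes tested 27 rose and none fell, also at an unadjusted p under 0.05 in limma, where 28 rose. The share of all genes at an unadjusted p was not counted here or below. Counts at that threshold thus cannot be read against the array as a whole. Without the filter, 27 of all 57 cluster genes rose, against 18.8% of all genes. The 6 cluster genes H1-6, H2AC12, H2AC17, H2BC11, H2BC12 and H4C16 had passed the filter mainly through the microsystem arrays. So had the pseudogene H2BC19P. The filter was therefore also applied to the 6 Petri arrays alone, with the same percentile and minimum number of arrays. Then 21 of 34 cluster genes rose, against 26.4% of all genes. The median log2 difference of the 40 cluster genes was 0.53, beside 0.01 for all genes tested.

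H2BC12 had values of 7.03, 7.26 and 6.11 in microsystem controls, against 4.22, 4.93 and 4.49 in Petri controls. H2BC21 had 10.46, 9.40 and 8.72 in microsystem controls, against 7.73, 7.55 and 7.24 in Petri controls. H2BC8 had 7.85, 7.97 and 7.16 in microsystem controls, against 6.11, 6.10 and 5.80 in Petri controls. In each of these 3 genes every microsystem control lay above every Petri control, and microsystem control 3 was the lowest of its group. The differences were 2.26 ± 0.26 for H2BC12 (SE, adjusted p = 1.62e-05 in limma), 2.02 ± 0.38 for H2BC21 (0.000729) and 1.66 ± 0.20 for H2BC8 (2.26e-05). H2BC12 had passed the filter mainly through its microsystem values, so its call does not stand as support.

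**Figure D1:**
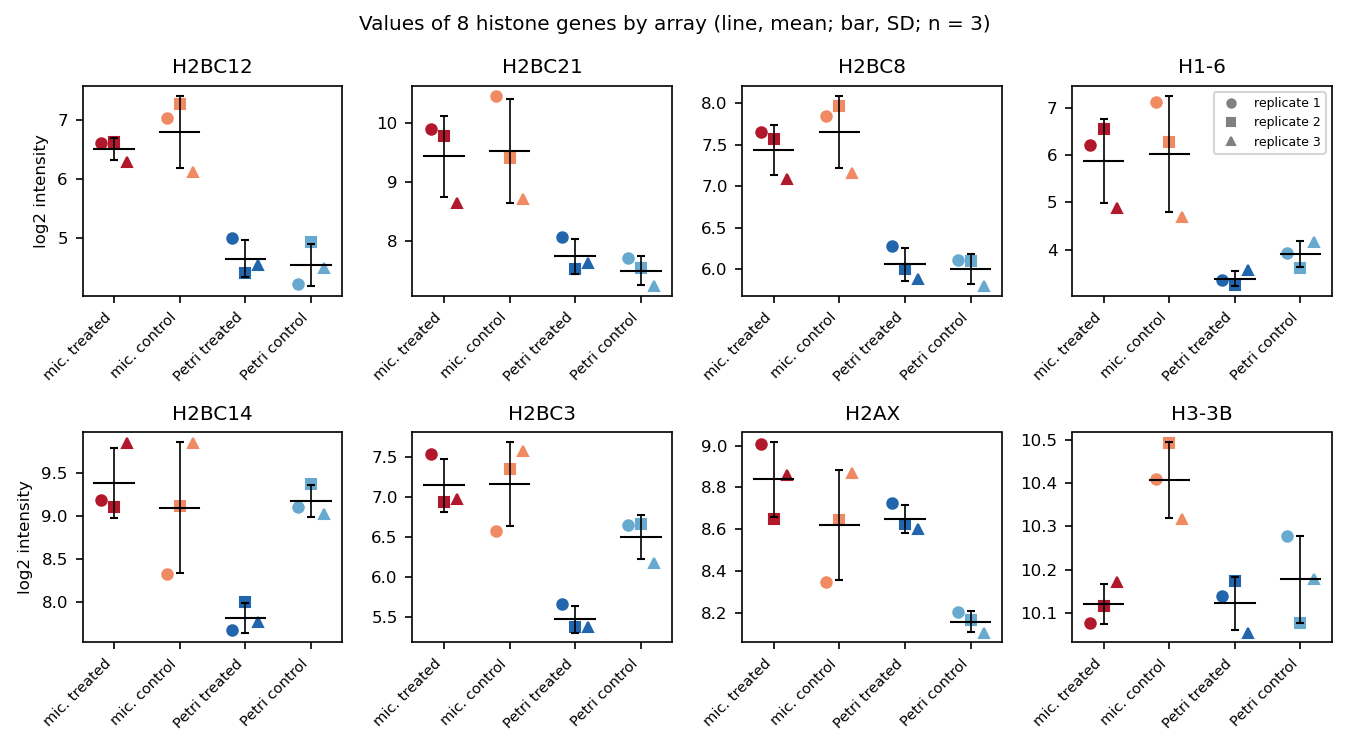
Log2 intensity of 8 histone genes on each of the 12 arrays, by group, with replicates 1, 2 and 3 as circles, squares and triangles, the group mean as a line and the SD as a bar (n = 3). Axes do not start at 0. H2BC12, H2BC21, H2BC8 and H1-6 are higher on every microsystem array than on every Petri array, with H1-6 at 4.69 and 4.87 on the microsystem arrays numbered 3, whereas H2BC14 and H2BC3 are lowest on the Petri treated arrays.

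Among the linker histones, 4 of the 5 cluster H1 genes tested rose, beside 26.5% of all genes. With the filter on Petri arrays 3 of 4 rose, beside 26.4% of all genes. H1-6, a linker histone known from the testis, had 7.13, 6.28 and 4.69 in microsystem controls, against 3.92, 3.62 and 4.17 in Petri controls. Its difference was 2.13 ± 0.50 (adjusted p = 0.00338), with a spread across the microsystem controls larger than the difference itself, and no Petri array above the 40th percentile, so that it passed the filter through its microsystem values alone. H1-4, one of the linker histones common in body cells, had 11.63, 12.17 and 12.12 in microsystem controls, against 11.03, 10.98 and 10.76 in Petri controls, a difference of 1.05 ± 0.14 (adjusted p = 6.34e-05). H1-2 and H1-5 rose by 0.95 and 0.75, and H1-3 differed by 0.33 and did not pass.

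Among the H2A genes, 8 of 9 cluster genes rose, beside 26.5% of all genes. These were H2AC4 by 0.98, H2AC17 by 0.84, H2AC15 by 0.71, H2AC6 by 0.54, H2AC20 by 0.52, H2AC11 by 0.47, H2AC8 by 0.45 and H2AC12 by 0.33. H2AC21 was flat, with a difference of 0.01. With the filter on Petri arrays, which leaves out H2AC12 and H2AC17, 6 of 7 cluster H2A genes rose, beside 26.4% of all genes. Among the H2B genes, 9 of 12 rose, beside 26.5% of all genes. With the filter on Petri arrays, which leaves out H2BC11 and H2BC12, 7 of 10 rose, beside 26.4%. Besides those already described, the 9 were H2BC11 by 1.03, H2BC5 by 0.87, H2BC4 by 0.83, H2BC17 by 0.72, H2BC3 by 0.67 and H2BC7 by 0.58. H2BC9, H2BC13 and H2BC14 differed by 0.22, 0.01 and -0.07.

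The H3 and H4 genes were split. H3C10 had 8.57, 8.60 and 8.28 in microsystem controls, against 7.12, 7.40 and 7.46 in Petri controls, and rose by 1.16 ± 0.15 (adjusted p = 4.59e-05). H4C8 had 7.09, 6.95 and 6.38 in microsystem controls, against 5.79, 5.74 and 5.67 in Petri controls, and rose by 1.07 ± 0.15 (8.39e-05). Neither gene's groups overlapped. H3C7 was the only other of 5 cluster H3 genes to rise, by 0.38, and H4C16, H4C4 and H4C14 rose by 0.79, 0.51 and 0.51 among 9 cluster H4 genes. Over all genes tested 26.5% rose. With the filter on Petri arrays, which leaves out H4C16, 3 of 8 cluster H4 genes rose, beside 26.4% of all genes. H3C2 and H4C3, a pair of bright cluster genes, had differences of 0.09 and -0.10, and their groups overlapped.

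Of the 10 single variant genes tested, 5 rose in microsystem controls, beside 26.5% of all genes. H2AZ1, which codes for the H2A.Z histone found near gene starts, had 9.60, 9.92 and 10.00 in microsystem controls, against 8.93, 9.15 and 9.18 in Petri controls, a difference of 0.76 ± 0.12 (adjusted p = 0.000277). H1-10 rose by 0.49, H2AX, whose phosphorylated form marks DNA breaks, by 0.46, H2AZ2 by 0.29 and H3-3B, which codes for H3.3, by 0.23. H2AJ, H3-5, H1-7, H1-8 and H2BW2 did not pass, with differences between -0.22 and 0.11. The median of the 10 was 0.17. Of the pseudogenes, H2BC19P rose by 1.21 ± 0.34 (adjusted p = 0.011) and H1-9P fell by 0.33 ± 0.13 (adjusted p = 0.0461). H2BC19P had passed the filter mainly through its microsystem values, on 4 microsystem arrays and 1 Petri array, so its call does not stand as support.

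Of these 34 calls, 24 passed under every alternative in which the gene was tested, and none changed direction. A gene that a stricter filter left out was not tested there. H1-6 and H2AC17 were thus tested in 21 alternatives, against 23 for H1-4. The other 10 were smaller or more variable. Without microsystem control 2, the adjusted p was 0.062 for H1-5, 0.199 for H1-9P, 0.0844 for H2AC12, 0.0585 for H2BC17, 0.0544 for H2BC19P, 0.106 for H2BC3, 0.115 for H3-3B, 0.0501 for H4C14 and 0.104 for H4C4. Without Petri control 3, H1-5, H2AC12, H2BC3, H3-3B, H4C4 and H1-9P had 0.0592, 0.0872, 0.129, 0.0692, 0.187 and 0.0849. H2AZ2 had 0.0733 without microsystem control 3 and 0.0712 without Petri control 1. The remaining single-array losses were of H1-5, H2AC12, H2BC3 and H4C4 without microsystem control 3 (0.0511, 0.0629, 0.123 and 0.0941), of H2BC17 and H3-3B without microsystem control 1 (0.0529 and 0.0621), of H1-9P, H3-3B and H4C4 without Petri control 2 (0.0734, 0.129 and 0.103), of H1-9P without Petri control 1 (0.12), and, through the shared estimate of spread, of H1-9P without Petri treated 1 or 3 (0.0506 and 0.0561) and of H4C4 without Petri treated 2 (0.0502).

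In acetaminophen-treated cells the same contrast of vessels, made on the other 6 arrays, gave 28 histone genes that rose and none that fell, of 53. Over all genes tested 22.6% rose and 18.9% fell, 41.4% in all. At an unadjusted p under 0.05 in limma, 31 histone genes rose and none fell, with all genes not counted there. Of the 40 cluster genes 27 rose, with a median difference of 0.63 beside 0.00 for all genes. Without the filter 28 of 57 rose, against 15.9% of all genes, and with the filter on Petri arrays 22 of 34 rose, against 22.3%. Of the 27 cluster genes that rose in each comparison, 24 were shared, which is 88.9% of either set. All 12 cluster H2B genes tested rose (10 of 10 with the filter on Petri arrays), and in each of the 12 every microsystem treated array lay above every Petri treated array, as in 28.1% of all genes tested.

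H2BC12 had 6.61, 6.62 and 6.29 in microsystem treated cells, against 5.0, 4.40 and 4.54 in Petri treated cells, a difference of 1.86 ± 0.26 (9.15e-05). H2AC4 had 9.29, 9.15 and 9.29 in microsystem treated cells, against 7.78, 7.43 and 7.23 in Petri treated cells, a difference of 1.76 ± 0.16 (2.55e-06). For both genes every microsystem treated array lay above every Petri treated array. H2BC12 had passed the filter mainly through its microsystem values, so its call does not stand as support here either. H2BC21 followed with 9.89, 9.77 and 8.65 in microsystem treated cells, against 8.08, 7.53 and 7.63 in Petri treated cells, a difference of 1.69 ± 0.38 (0.0028). The brighter probe sets that H2BC12 and H2BC21 share with close copies rose by 0.653 and 0.405 in treated cells. H1-6 had 6.22, 6.56 and 4.87 in microsystem treated cells, against 3.36, 3.24 and 3.56 in Petri treated cells. Its fitted difference was 2.50 ± 0.50 (adjusted p = 0.00127), but it passed the filter through its microsystem values alone, all Petri values being below the 40th percentile, so neither the size nor the call stands as support.

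H2BC3 and H2BC14 rose by 1.68 ± 0.23 (adjusted p = 7.65e-05) and 1.56 ± 0.29 (8e-04), H3C10 by 1.51 ± 0.15 (6.24e-06) and H2BC8 by 1.38 ± 0.20 (0.000115). The other H2B genes that rose were H2BC17 by 1.31, H2BC11 by 1.15, H2BC5 by 0.91, H2BC4 by 0.84, H2BC7 by 0.77, H2BC13 by 0.55 and H2BC9 by 0.45. H4C8 and H4C16 rose by 1.37 and 0.71, H1-4, H1-2 and H1-5 by 0.75, 0.73 and 0.64, and H3C7 by 0.33. Among H2A genes H2AC17, H2AC6, H2AC8, H2AC20, H2AC15 and H2AC11 rose by 0.94, 0.67, 0.61, 0.46, 0.43 and 0.38. Of the 10 variant genes only H2AZ1 rose, where 22.6% of all genes rose. H2AZ1 had 10.04, 9.79 and 10.12 in microsystem treated cells, against 9.23, 9.50 and 9.47 in Petri treated cells, a difference of 0.58 ± 0.12 (0.00211). H3-3B differed by 0.00, H1-10 by 0.03, and H2AX, H2AZ2 and H2AJ by 0.19 each. Their adjusted p lay between 0.102 and 0.992, and H2AJ passed without microsystem treated 3, at 0.25 (0.0463).

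Of the 28 calls in treated cells, 22 passed under every alternative in which the gene was tested and none changed direction. As in controls, a gene that a stricter filter left out was not tested there. The 6 others were H1-5, H2AC11, H2AC15, H2BC9, H2BC13 and H3C7. Without Petri treated 3 the adjusted p was 0.134 for H1-5, 0.0753 for H2AC11, 0.0745 for H2AC15, 0.131 for H2BC9 and 0.089 for H3C7. Without microsystem treated 3 it was 0.0765 for H1-5, 0.0571 for H2AC15, 0.086 for H2BC9, 0.0622 for H2BC13 and 0.0997 for H3C7. Without microsystem treated 1 it was 0.0959 for H2AC11, 0.0954 for H2AC15 and 0.0633 for H3C7, and without microsystem treated 2 it was 0.0621 for H1-5 and 0.0556 for H2BC9. Without Petri treated 1 it was 0.0565 for H2AC11, 0.0526 for H2AC15 and 0.0513 for H3C7, and without Petri treated 2 it was 0.0682 for H2AC15.

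**Figure D2:**
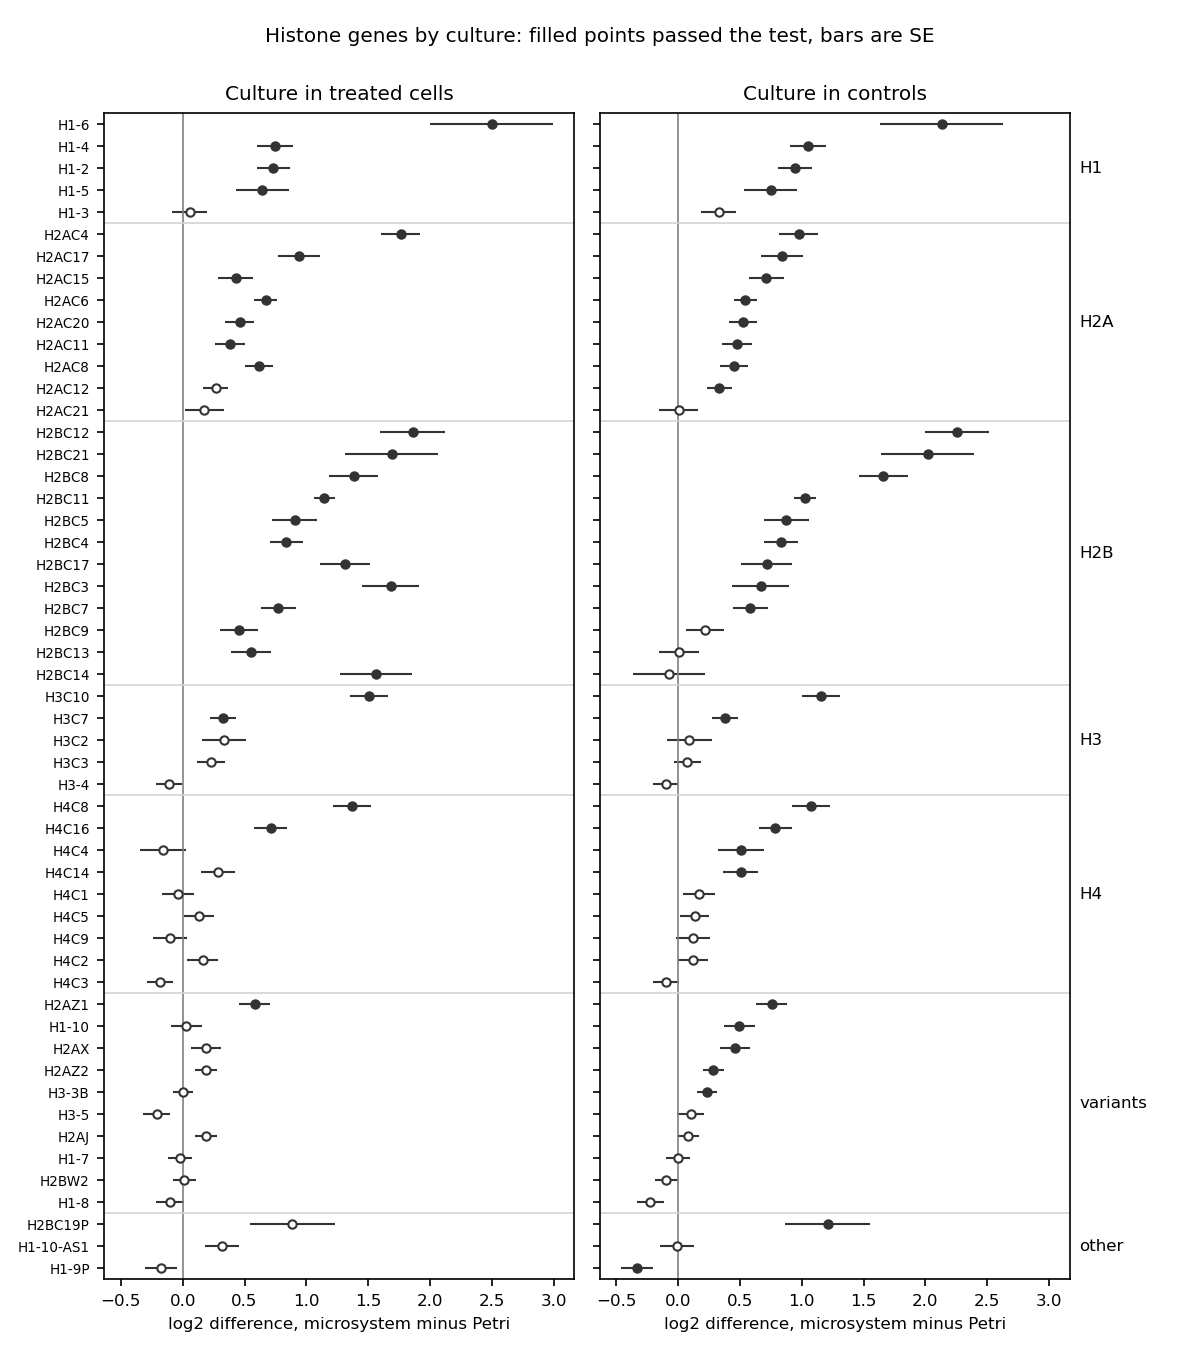
Log2 difference, microsystem minus Petri, of the 53 histone genes tested, in treated cells (left) and in controls (right), grouped by class, with SE bars; filled points had an adjusted p under 0.05. The 12 cluster H2B genes all lie right of 0 in treated cells, and 1 of the 10 variant genes is filled in treated cells and 5 in controls. Of all genes tested, 22.6% rose in treated cells and 26.5% in controls.

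The class contrast can be read array by array. The mean log2 value of the 40 cluster genes minus that of the 10 variant genes was -0.40 ± 0.06 on microsystem treated arrays and -0.53 ± 0.11 on microsystem control arrays, against -1.04 ± 0.11 on Petri treated arrays and -0.96 ± 0.09 on Petri control arrays (SD, n = 3 each). Only the change of this gap between arrays carries meaning, since levels of different probe sets are not on one scale. The lowest microsystem array, at -0.64, lay above the highest Petri array, at -0.90. The cluster genes averaged 7.61 and 7.58 in treated and control microsystem cells, against 6.89 and 6.93 in treated and control Petri cells. The variant genes averaged 8.02 and 8.11 in treated and control microsystem cells, against 7.93 and 7.90 in treated and control Petri cells. The size of the gap changed with the filter, as given in the closing section, and it was narrower in the microsystem under each filter tried.

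**Figure D3:**
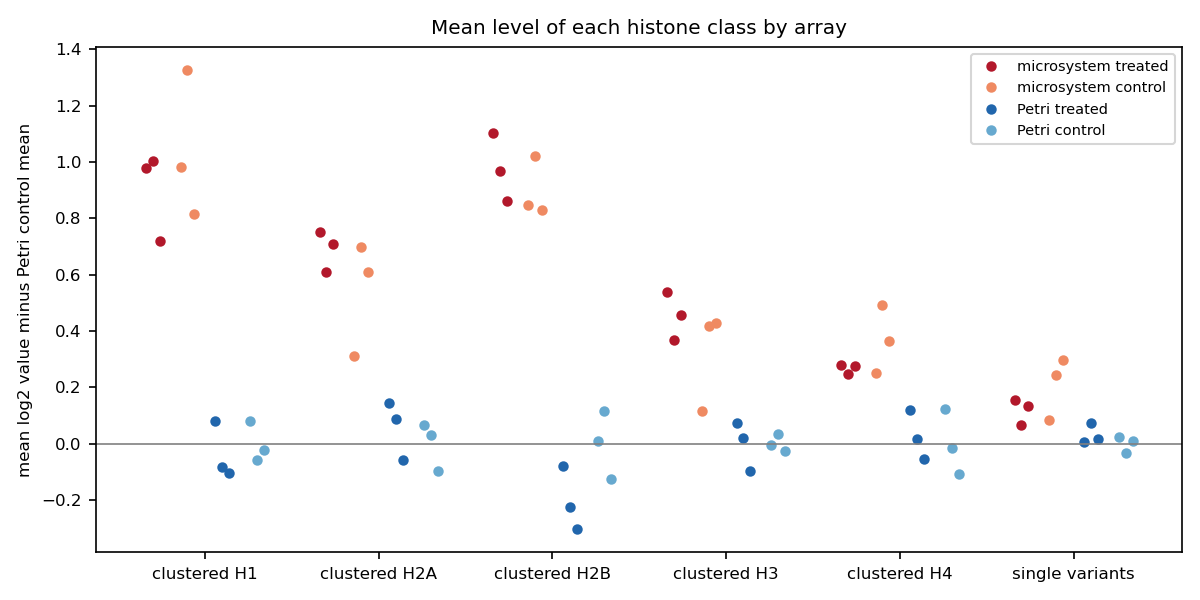
Mean log2 value of the genes of each class that passed the filter, on each array, minus the mean of the Petri control arrays; points are arrays and the classes are cluster H1, H2A, H2B, H3 and H4 genes and the single variant genes. The microsystem arrays lie above the Petri arrays by more for H1, H2A and H2B than for H4 and the variants. The means include cluster genes that passed the filter mainly through the microsystem arrays.

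H2A and H2B cluster genes often lie head to head and share a promoter region. Of 9 such pairs of members with start sites within 500 bases, 5 had both genes tested, and both genes of each rose in both comparisons of vessels, where 26.5% and 22.6% of all genes rose. Among cluster genes tested, paired or not, 8 of 9 H2A and 9 of 12 H2B genes rose in controls. In treated cells 7 of 9 and 12 of 12 rose, so the rise was not particular to the pairs. H2BC11 and H2AC17 had passed the filter mainly through the microsystem arrays, so the pairs they belong to were in part chosen by their height there, and 3 pairs are free of this. The start sites of these 5 pairs were 233 to 248 bases apart. In controls, H2BC21 and its neighbour H2AC20 rose by 2.02 and 0.52, H2BC8 and H2AC8 by 1.66 and 0.45, H2BC11 and H2AC11 by 1.03 and 0.47, H2BC4 and H2AC6 by 0.83 and 0.54, and H2BC17 and H2AC17 by 0.72 and 0.84. In treated cells the values were 1.69 and 0.46, 1.38 and 0.61, 1.15 and 0.38, 0.84 and 0.67, and 1.31 and 0.94 in the same order. H2BC14 and H2BC13 have H2AC14 and H2AC13 as neighbours, which did not pass the filter.

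The microsystem arrays numbered 3 differed from the other 4 in part of the histone genes. Of the 53 tested, 11 were lower on both arrays numbered 3 than on all 4 others and 11 were higher on both, 20.8% each, beside 10.7% and 9.46% of all genes. H1-6, H2BC21, H2BC19P, H2BC17, H2BC12, H2BC5 and H2BC8 were lower on them by 1.76, 1.20, 1.16, 0.70, 0.68, 0.66 and 0.63 on average. H2BC14 was higher by 0.91, H2AC21 by 0.40 and H3C2 by 0.39. With both arrays left out, H2BC12, H2BC21, H2BC8 and H1-6 were higher in microsystem controls by 2.60, 2.42, 1.91 and 2.80, and 29 histone genes rose and 2 fell. In treated cells 26 rose and none fell without them. The share of all genes called in that fit is not given here, so these counts cannot be read against the array as a whole.

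The treatment comparison in Petri dishes asked what acetaminophen changed there. A few histone genes passed the test: H2BC14 and H2BC3, cluster H2B genes, fell, and H2AX and H2AZ2, variant genes, rose. The 2 rises and 2 falls among 53 stood beside 8.38% and 1.98% of all genes, 10.4% in all. Of the 40 cluster genes 2 fell and none rose, with a median difference of 0.02 beside 0.01 for all genes. At an unadjusted p under 0.05 in limma, 1 cluster gene was higher and 4 were lower, with all genes not counted there.

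H2BC14 had 7.67, 8.0 and 7.78 in treated Petri cells, against 9.11, 9.38 and 9.02 in Petri controls. It fell by 1.35 ± 0.29 on the log2 scale (adjusted p = 0.0101), and the call held in each of 24 alternatives, with adjusted p between 0.000162 and 0.0477. H2BC3 had 5.65, 5.37 and 5.37 in treated Petri cells, against 6.64, 6.65 and 6.18 in Petri controls. It fell by 1.03 ± 0.23 (0.0123), with 0.0538 without Petri treated 2, 0.0522 without Petri treated 3 and 0.0568 without Petri control 2. In both genes no treated array reached any control array. An exact permutation test of 3 arrays against 3 cannot give a p below 0.1.

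H2AX had 8.72, 8.62 and 8.60 in treated Petri cells, against 8.20, 8.17 and 8.11 in Petri controls, and rose by 0.49 ± 0.12 (adjusted p = 0.0209). H2AZ2 had 8.89, 9.07 and 8.96 in treated Petri cells, against 8.56, 8.70 and 8.75 in Petri controls, and rose by 0.30 ± 0.09 (0.0444). The groups did not overlap in either gene. The call of H2AX was lost when any 1 of 5 arrays was left out, Petri treated 1, 2 or 3 and Petri control 2 or 3 (0.0628, 0.0617, 0.0539, 0.0628 and 0.0732). That of H2AZ2 was lost when any 1 of 8 was left out, namely Petri treated 2 or 3 (0.169 and 0.113), Petri control 1, 2 or 3 (0.128, 0.0972 and 0.0608), microsystem treated 1 or 2 (0.0577 and 0.0575) and microsystem control 2 (0.0549). It was also lost with quantile normalization (0.0735) and with no filter (0.0579). H2AZ1, H1-10, H3-3B and H2AJ differed by 0.32, 0.11, -0.06 and -0.13 and did not pass. Same-numbered Petri arrays deviated together, and with the number as a block within each vessel 7 histone genes passed. These were the same 4 with H2AC15 and H2BC19P, which rose by 0.42 and 0.51, and H1-8, which fell by 0.30, beside 16.5% of all genes in that fit. H2BC19P had passed the filter mainly through the microsystem arrays and lay above the filter's threshold on 1 Petri array only.

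The treatment comparison in the microsystem gave 1 call among 53, beside 6.39% of all genes that rose and 2.67% that fell, 9.06% in all. H3-3B, which codes for the replacement histone H3.3, had 10.08, 10.11 and 10.17 in treated microsystem cells, against 10.41, 10.49 and 10.32 in microsystem controls. It fell by 0.29 ± 0.08 (adjusted p = 0.0403), the groups did not overlap, and the call was lost under 13 of 24 alternatives, with adjusted p up to 0.135. Among the single arrays this was so when microsystem treated 1, 2 or 3 was left out (0.103, 0.12 and 0.0602), without microsystem control 1 or 2 (0.0658 and 0.135), and without Petri treated 2 or 3 or Petri control 3 (0.0565, 0.0534 and 0.0526). None of the 40 cluster genes passed in this fit, and 3 were higher and 2 lower at an unadjusted p under 0.05 in limma, with all genes not counted there. With the number as a block within each vessel, H2BC17 and H2AC4 rose by 0.58 and 0.43. H4C4 fell by 0.45 in that fit, which called 16% of all genes. H2BC14 had 9.19, 9.11 and 9.85 in treated microsystem cells, against 8.32, 9.12 and 9.85 in microsystem controls, and H2BC3 had 7.53, 6.94 and 6.97, against 6.57, 7.34 and 7.57. Both overlapped between the groups. H2AX, H2AZ1, H2AZ2, H1-10 and H2AJ differed by 0.22, 0.14, 0.21, -0.36 and -0.02 and did not pass. H1-10 passed without microsystem control 1, at -0.51 (0.0123).

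The difference of the treatment effects between the vessels, microsystem minus Petri, was tested in one model. No histone gene passed, beside 0.0303% of all genes. At an unadjusted p under 0.05 in limma 4 histone genes were above 0 and 2 below, with all genes not counted there. The largest was H2BC14, at 1.64 ± 0.41 (adjusted p = 0.295). H2BC3 differed by 1.01 ± 0.32 (0.445) and H2AC4 by 0.79 ± 0.22 (0.386). For H2BC14 the adjusted p ran between 0.0212 and 0.602 over the alternatives, and it passed in 4 of them. These were the block on replicate number within each vessel, with the difference unchanged at 1.64 (0.0212), array weights, at 1.60 (0.0422), the fit without microsystem control 3, at 2.01 (0.042), and the fit without both microsystem arrays numbered 3, at 1.78 (0.0391).

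Genes that act on histone mRNA, chromatin assembly and S phase were measured beside the histone genes. In treated Petri cells, where 8.38% of all genes rose and 1.98% fell, 21 of 31 tested genes of S phase entry and DNA synthesis rose and none fell, with a median of 0.59, while the 40 cluster histone genes had a median of 0.02. E2F7, a transcriptional repressor of the E2F family, rose by 1.79, CDC6, which loads the replicative helicase, by 1.33. Of 20 genes of histone mRNA synthesis and end processing, 4 rose and none fell: CASP8AP2 by 0.51, NPAT, the activator of cluster histone transcription, by 0.48, with ZNF473 and ERI1. SLBP, which binds the histone stem-loop, differed by 0.30 (adjusted p = 0.086). Of 31 chaperone genes 7 rose and none fell, with ASF1B at 1.11, CHAF1B at 0.86 and CHAF1A at 0.66. Of 10 growth arrest and p53 genes 4 rose and none fell, among them CDKN1A, a cyclin-dependent kinase inhibitor, by 0.67. MKI67, a proliferation marker, rose by 0.57.

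In treated microsystem cells 11 of the 31 S phase genes rose and none fell, with a median of 0.33. Of the 20 processing genes 2 rose and 1 fell, CASP8AP2 by 0.42 and NPAT by 0.37 being the rises, and 3 of 31 chaperone genes rose and 1 fell, beside 6.39% and 2.67% of all genes. Without microsystem treated 2 the adjusted p was 0.0873 for CASP8AP2 and 0.121 for NPAT, without microsystem treated 3 it was 0.0564 and 0.053, and for NPAT it was 0.0877 and 0.0676 without microsystem control 2 or 3. SLBP differed by 0.11 and did not pass. CDKN1A rose by 0.51, with 0.0525 without microsystem treated 2, and MKI67 rose by 0.49, with 0.0757 and 0.0505 without microsystem treated 2 or 3. Of the growth arrest genes 4 rose and none fell.

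**Figure D4:**
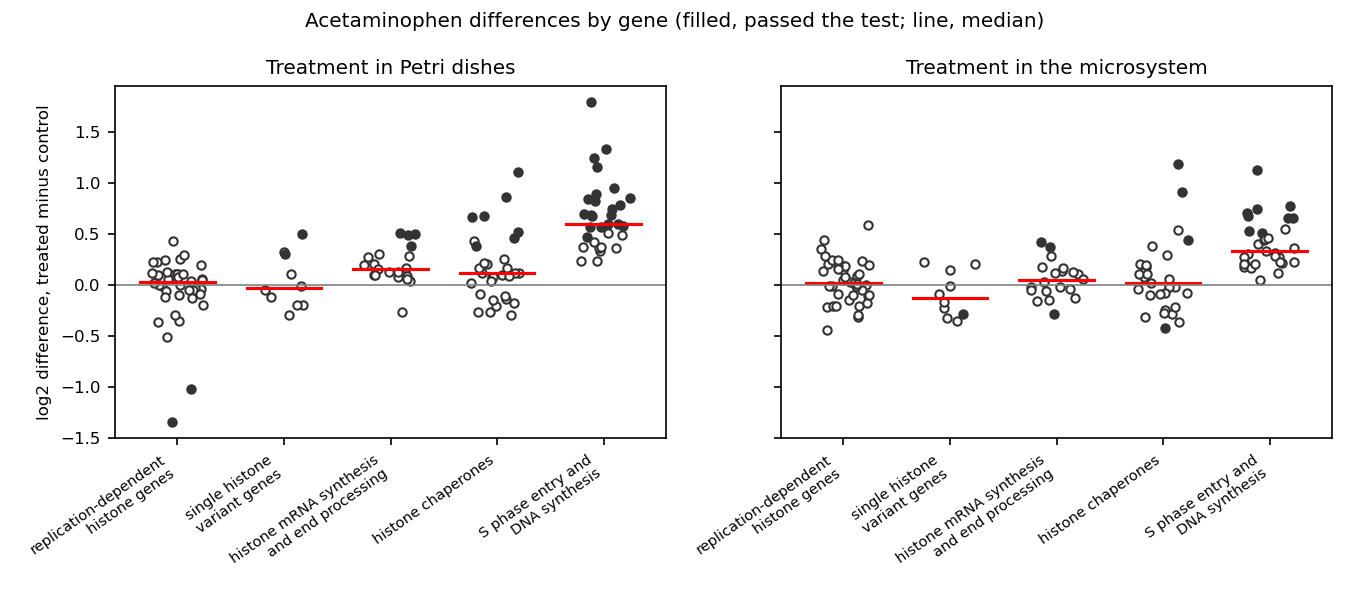
Log2 difference, treated minus control, of each gene tested, in Petri dishes (left) and in the microsystem (right), for the cluster histone genes, the variant genes and 3 sets of partner genes; filled points had an adjusted p under 0.05 and lines are medians. In Petri dishes the S phase genes lie above 0 with a median of 0.59, whereas the cluster histone genes centre on 0.02 with H2BC14 and H2BC3 far below.

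The same sets were also compared between the vessels, where 26.5% of all genes rose and 18.3% fell in controls, and 22.6% rose and 18.9% fell in treated cells. In controls 18 of 31 S phase genes rose and 2 fell in the microsystem, with a median of 0.52, and in treated cells 13 rose and 2 fell, with a median of 0.19. The processing genes gave 11 rises and 2 falls in controls and 6 and 3 in treated cells, of 20, with medians of 0.26 and 0.08, and the chaperone genes 11 and 4, then 7 and 3, of 31, with medians of 0.23 and 0.06. Of the partners in the deposition of H3.3, ASF1A, CABIN1 and HIRA rose by 1.68, 1.12 and 0.90 in controls and by 1.88, 1.01 and 0.79 in treated cells, while UBN2 fell by 0.43 in controls and by 0.37 in treated cells and UBN1 differed by 0.12 and 0.06 and did not pass. SLBP differed by 0.16 in controls and -0.03 in treated cells, and MKI67 by 0.11 and 0.03, and none of these passed. MKI67 passed in controls without microsystem control 1, at 0.26 (0.0355). NPAT rose by 0.36 in controls. NPAT in treated cells and CASP8AP2 in controls both rose by 0.25, with adjusted p of 0.0463 and 0.0485, and lost the call under 11 and 14 of 23 alternatives. Among histone variants outside the symbol rule, MACROH2A1 rose by 0.44 in controls, and by 0.38 in treated against control Petri cells. The leukocyte markers CD68 and LYZ moved with the vessel too, CD68 by -1.05 and LYZ by 0.33 in controls, while PTPRC and CD3E did not pass the filter. The mean log2 level of the 4 leukocyte markers lay between 6.70 and 6.86 on microsystem control arrays, against 6.95 and 7.07 on Petri control arrays. That mean pools CD68 and LYZ, which moved in opposite directions, with 2 markers that did not pass. The part of S phase share, of stem-loop processing and of these markers in the histone differences was not tested, and in bulk RNA more cells of a kind and more RNA per cell cannot be told apart.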

How the data were processed

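Biotin-labelled total RNA of 12 HepG2C3A samples was hybridised to Affymetrix arrays, 1 colour, 3 arrays in each of 4 groups. The deposited values are log2 intensities, summarised per probe set with Affymetrix Expression Console and RMA, per the submitters' processing notes (versions not stated). The labels do not give the primer used for labelling. Because most cluster histone mRNA has no poly(A) tail, the values of these genes depend on that step.

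Of 32321 probe sets, 19158 carry 1 symbol in the platform annotation and 1388 several. The probe set with the highest mean stood for each of 18404 genes, and 13199 passed the filter (above the 40th percentile of the array on at least 3 arrays). limma 3.58.1 (R 4.3.3) was fitted to all 12 arrays with 1 coefficient per group, moderated by eBayes (8 residual and 5.35 prior degrees of freedom), with Benjamini-Hochberg adjustment over all genes that passed. Precision is set by having 3 arrays a group. The members and lists were chosen with earlier results of these data known. Genes named are those past the threshold, with full statistics for at most 8 rises and 8 falls a comparison, and a set of named variants and partners. Same-numbered Petri arrays correlated in their deviations from the group means (0.477, 0.189 and 0.307). Numbers were taken to pair arrays where all 3 correlations over all genes tested were above 0.1. In the microsystem they were 0.107, 0.071 and 0.604 (0.442, 0.126 and 0.862 over the histone genes alone). Blocked values therefore stand beside the Petri results. For the microsystem the blocked calls stand in the closing section, and those of cluster genes also in the results. Alternatives covered the block, normalization, filter, array weights, intensity trend, arrays fitted and each array left out. The fits were tested on simulated data.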

Additional observations from a re-analysis of the deposited data

Results flagged for a closer look

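Outside the members stand 23 histone probe sets that carry several symbols, mostly of near-identical copies, and 14 of these passed the filter when every probe set was tested by itself. In microsystem against Petri controls 8 of the 14 rose and none fell in limma, beside 20.4% of 20226 probe sets that rose. The log2 differences were 1.78 for the probe set of H4C15 and H4C14, 0.593 for that of H2BC12, H2BC12L, H2BC17 and H2BC5, 0.581 for that of H3C10 and H2AC13, and 0.572 for that of H3C4 and H2AC7. They were 0.542 for that of H2AC19, H2AC21, H2AC20 and H2AC18, 0.455 for that of H2BC19P, H2BC20P and H2BC21, 0.444 for that of H3C13, H3C15 and H3C14, and 0.297 for that of H2BC15 and H2AC15. In treated cells 5 of the 14 rose and 2 fell, beside 17.8% of all probe sets that rose and 33% called in either direction. The probe set of H2BC15 and H2AC15 was higher in the microsystem in controls and fell by 0.23 there in treated cells, which makes it the one of the 8 with a call in each direction. It was also the one of the 14 called with treatment, falling by 0.37 in treated against control microsystem cells (adjusted p = 0.0281). Of all probe sets 4.79% were called in that comparison. The second to fall in treated cells was that of H4C11 and H4C12, at -0.41. These values belong to no single gene and entered no count of members. No test for a lone array far from its group was made, since all groups have 3 arrays.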

How the results depend on the processing

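No call of a histone gene changed direction under any alternative. In Petri dishes the count of 4 became 7 with a replicate block within each culture, 8 with only the arrays compared and 11 with array weights, and 1 to 4 with 1 array left out. In the microsystem the count of 1 became 2 with a replicate block over all arrays and 3 with array weights. With the block within each culture the count became 5, beside 16% of all genes. H2AC4 and H2BC17 rose and H3-3B, H3-5 and H4C4 fell in that fit. The count became 0 with only the arrays compared, with no filter, with quantiles made equal and with medians made equal, and 0 to 4 with 1 array left out. For the difference of treatment effects the count of 0 became 1 with the block within each culture, with array weights and without both microsystem arrays numbered 3, and 0 to 1 with 1 array left out. The culture counts, 34 in controls and 28 in treated cells, stayed within 1.5 times under 23 alternatives each; they ran from 23 to 36 and from 19 to 33. The block within each culture was not fitted for them, since it takes up the vessel. The replicate block over all arrays gave 4, 34, 31 and 0 for Petri, controls, treated cells and the difference. Apart from the block within each culture, no share of all genes stands beside these counts here. They cannot be read against the array as a whole.

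With no filter the median of the cluster genes was 0.33 in controls and 0.33 in treated cells, since 17 dim genes enter it. The cluster minus variant gap was then -0.86 in treated and -0.95 in control microsystem cells, against -1.33 in treated and -1.27 in control Petri cells. With a filter at the 60th percentile it was -0.15 and -0.25 in treated and control microsystem cells, against -0.85 and -0.65 in treated and control Petri cells. The filter on Petri arrays and the tests of single probe sets were added after seeing the data. Signal over background is unknown for these summarised values, and no bound could be set for dim genes such as H1-6 in Petri cells.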
